A study of Glycine max with 9 samples.

Results

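The 4 soybean loci Glyma.16G017400, Glyma.07G048500, Glyma.19G260900 and Glyma.03G261800 carry LHY, a morning gene of the plant circadian clock. They were taken by their locus IDs as 4 of the 56044 rows of an expression table of root hair cells, the tubular outgrowths of single root epidermal cells through which water, nutrients and, in legumes, rhizobia enter. All 4 were among the 31518 genes that reached 1 FPKM in at least 3 of the 9 libraries and were tested. The plants were Glycine max of the genotype labelled willam 82, grown in an ultrasound aeroponic system, and no treatment is named. The groups 12h, 24h and 48h hold 3 libraries each and are labelled 276, 288 and 312 hours after sowing, so the plants of the 24h and 48h groups were 12 and 36 hours older than those of the 12h group. The sources used here do not say whether plants were pooled or grown in separate runs, nor do they give the light regime. The p-values therefore rest on differences among libraries that may be technical only.

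LHY and its relative CCA1 encode MYB-type transcription factors whose transcripts peak around dawn in Arabidopsis. There they repress evening-phased genes such as TOC1, GIGANTEA, ELF3 and LUX, and pseudo-response regulators (PRR proteins) repress LHY and CCA1 in turn, which closes a daily loop. In soybean, LHY proteins are known for their part in photoperiodic flowering, where they act on the flowering repressor E1 in leaves. The soybean genome is duplicated, and the loci form 2 homeologous pairs, Glyma.16G017400 with Glyma.07G048500 and Glyma.19G260900 with Glyma.03G261800. The RefSeq table of assembly Glycine_max_v4.0 lists 4 genes with a GmLHY synonym, on chromosomes 3, 7, 16 and 19, the chromosomes named in the 4 IDs: GmLHY1a on 16, GmLHY1b on 7, GmLHY2a on 19 and GmLHY2b on 3. That table pairs 0 of the 56044 IDs with a gene, so the link rests on the chromosome alone.

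By their labelled ages the 24h and 48h groups lie exactly 24 hours apart, and the 12h group lies 12 hours from that hour of the day. This equals a difference in the hour of the day only if all plants were sown at the same hour, which the labels do not say. With a common sowing hour, the 24h and 48h groups would share the hour of the day and differ in age. As that hour is not given, hour of the day and age, which is the time since sowing, cannot be told apart here.

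FPKM counts sequenced fragments relative to transcript length and to all mapped fragments, so levels can be compared between loci of different length. The depth of each library is unknown. The 12h libraries differed most among themselves, with correlations across genes of 0.777 to 0.883 on the log2 scale, against 0.925 to 0.951 at 24h and 0.964 to 0.969 at 48h. In 12h replicate 2 the 100 highest genes made up 53.6% of the summed FPKM, against 22.5% to 38.5% in the other 8 libraries. No marker of root hair cells could be checked by ID. The 4 loci published as leghemoglobin genes, which mark nodule cells, were listed at 0 in all 9 libraries. In such bulk samples, fewer cells of a type and less RNA per cell cannot be told apart.

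Glyma.16G017400 was the highest of the copies in every library. Its level was 2.47, 3.13 and 4.05 FPKM in 12h replicates 1, 2 and 3. It was 69.8, 9.33 and 24.1 FPKM in 24h replicates 1, 2 and 3, and 199, 127 and 112 FPKM in the 48h replicates. The 3 groups did not overlap, the 24h libraries lay far apart from each other, and the 12h and 48h libraries lay close together within their groups. Set among all tested genes, this locus stood above 24.5% to 49.3% of them in a 12h library and above 96.7% to 98.6% of them in a 48h library. In the 24h libraries it stood above 93.5%, 63.8% and 84.6% of them.

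Glyma.07G048500, the other copy of that pair, had 0.669, 0.922 and 1.48 FPKM at 12h. At 24h it was at 10.3, 1.61 and 3.51 FPKM, and at 48h at 25.6, 20.3 and 17 FPKM. Near-identical copies can share reads, which makes the separate values of the loci uncertain. Here, too, the ages were in order without overlap, although 24h replicate 2 lay just above 12h replicate 3.

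The second pair began lower. Glyma.19G260900 had 0.0574, 0.0514 and 0.257 FPKM at 12h, 10.4, 0.844 and 2.82 FPKM at 24h, and 24.6, 11.3 and 16.8 FPKM at 48h. Glyma.03G261800 was listed at 0.0370, 0 and 0.0692 FPKM at 12h, at 16.3, 0.582 and 4.09 FPKM at 24h, and at 50.4, 21.3 and 27.7 FPKM at 48h. Both loci were thus near the floor of the table at 12h and clearly present in every 48h library. Values this low rest on few fragments, and a listed 0 can be a failed estimate.

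**Figure D1:**
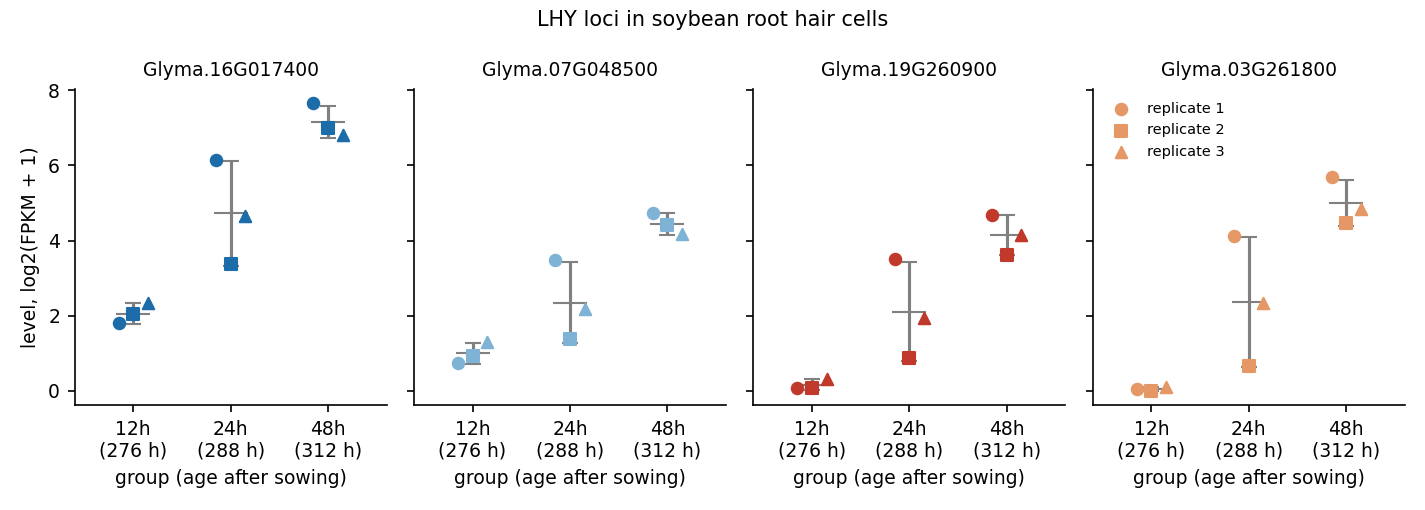
Level of each LHY locus in each library as log2(FPKM + 1) (y axis) by group, with the age after sowing in hours (x axis). Markers are libraries by replicate number and grey bars show the mean ± SD (n = 3). All 4 loci stand lowest at 12h and highest at 48h, and at 24h replicate 1 is the highest and replicate 2 the lowest library at each locus.

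All 4 copies were in the same order, every 12h library below every 24h library and every 24h library below every 48h library. Over all tested genes, 0.257% were ordered in this way. Of the 4 loci, only Glyma.16G017400 reached 1 FPKM in every 12h library. The others entered the tested set through the later groups, where they are high. Taken one contrast at a time, 8.54% of the tested genes were higher without overlap at 24h than at 12h, 32.6% at 48h than at 24h, and 19.8% at 48h than at 12h. Dividing each library by a median-of-ratios factor, which sets the median gene level with the other libraries, left 0.133% of genes and 2 of the 4 loci in this order, Glyma.16G017400 and Glyma.03G261800. By contrast, 3 of 4 loci were then higher without overlap at 24h than at 12h (5.81% of genes), 3 of 4 at 48h than at 24h (22.8%), and 4 of 4 at 48h than at 12h (8.47%). Glyma.07G048500 then overlapped between 12h and 24h, with 1.56 scaled FPKM in 12h replicate 2 against 1.53 in 24h replicate 2. Glyma.19G260900 overlapped between 24h and 48h, with 9.51 scaled FPKM in 24h replicate 1 against 9.31 in 48h replicate 2.

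From 12h to 48h all 4 loci rose. Fold changes were tested with limma on log2(FPKM + 1) with all genes in the fit, and p-values were adjusted by Benjamini-Hochberg over the 31518 tested genes. The log2 fold change was 5.09 ± 0.563 for Glyma.16G017400 (SE; limma adjusted p = 0.00899). It was 3.44 ± 0.472 for Glyma.07G048500, 3.99 ± 0.551 for Glyma.19G260900 and 4.95 ± 0.673 for Glyma.03G261800 (SE; limma adjusted p = 0.0221 each). Ranked by this fold change, the 4 loci were 2nd, 17th, 8th and 4th of all tested genes. These ranks hold for an added constant of 1 FPKM only: with 0.1 FPKM, in the same order of loci, the ranks were 17, 49, 7 and 1. Calls at an adjusted p under 0.05 covered 0.117% of the tested genes, 37 genes that all rose, and the 4 loci were among them. Of the 4 loci, Glyma.19G260900 and Glyma.03G261800 passed the filter through the later groups only, reaching 1 FPKM in 5 libraries each and in none at 12h. Glyma.07G048500 reached it in 7 libraries, at 12h in replicate 3 only, so it too needed the later groups to pass. An unadjusted p under 0.05 was reached by 10.8% of the tested genes. The median log2 fold change was 4.47 for the 4 loci and 0.341 for all tested genes.

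The added constant of 1 FPKM understates the change of the copies that started low. On the plain FPKM scale the 48h mean was 45.4 times the 12h mean for Glyma.16G017400, 20.4 times for Glyma.07G048500 and 144 times for Glyma.19G260900. The last value rests on 12h replicate 3, without which it was 323 times. No such fold is given for Glyma.03G261800, which was listed at 0 in 12h replicate 2.

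The direction held for each locus in all 20 other settings tried, whereas the call did not. As the groups did not overlap in FPKM, only the scalings could have turned the direction. After median-of-ratios scaling, which moved the median of all genes to -0.0129, the log2 fold changes were 3.07 to 4.70 and 0 of 4 passed (limma adjusted p 0.0703 to 0.110). With no filter on the level, 0 of 4 passed as well (limma adjusted p 0.0799 to 0.145). Without 12h replicate 1, without 12h replicate 2 or without 48h replicate 1, 0 of 4 passed, with limma adjusted p-values of 0.0790 to 0.126. Leaving out 24h replicate 3, 48h replicate 2 or 48h replicate 3 left 1 of 4, which was Glyma.16G017400. Its log2 fold change without 12h replicate 2, the library that stands apart, was 5.09 as before.

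**Figure D2:**
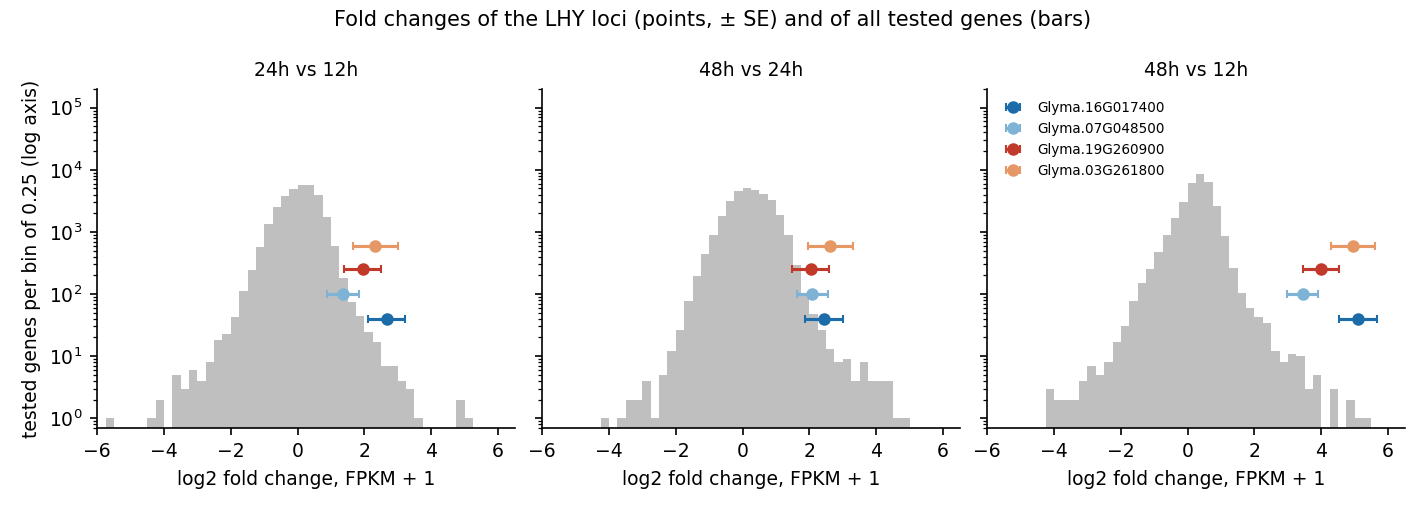
Number of tested genes per bin of 0.25 of the log2 fold change on FPKM + 1 (grey bars, log y axis) in each contrast, with the LHY loci as points ± SE on the same x axis. The height of a point has no meaning. From 12h to 48h the loci lie between 3.44 and 5.09, where few other genes are.

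The 24h libraries stood between the other groups, and no locus passed in either contrast with them. Against 12h the log2 fold changes were 2.66 ± 0.563 for Glyma.16G017400, 1.35 ± 0.472 for Glyma.07G048500, 1.95 ± 0.551 for Glyma.19G260900 and 2.32 ± 0.673 for Glyma.03G261800 (SE; limma adjusted p 0.326 to 0.499). In that contrast 0.0381% of the tested genes were called, 0.0317% as higher at 24h. An unadjusted limma p under 0.05 was reached by all 4 loci and by 9.96% of the tested genes. Glyma.16G017400 passed without 12h replicate 2 (limma adjusted p = 0.0370), where 12.1% of all tested genes were called, and without 24h replicate 2 (limma adjusted p = 0.0430), where 0.0698% were.

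From 24h to 48h the log2 fold changes were 2.43 ± 0.563 for Glyma.16G017400, 2.09 ± 0.472 for Glyma.07G048500, 2.04 ± 0.551 for Glyma.19G260900 and 2.63 ± 0.673 for Glyma.03G261800 (SE; limma adjusted p = 0.248 each). In the same order of loci, the plain means at 48h were 4.24, 4.08, 3.74 and 4.74 times those at 24h. These folds rest on 24h replicate 1, without which they were 8.72, 8.18, 9.59 and 14.2 times. No gene was called in this contrast (limma, 0%), and 17.9% had an unadjusted p under 0.05, as did all 4 loci. All 4 passed when the 12h libraries were kept out of the fit (limma adjusted p 0.0303 to 0.0453), without 12h replicate 2 (limma adjusted p 0.0372 to 0.0481) and with array weights (limma adjusted p 0.00566 to 0.00735). In these fits 17.2%, 11.8% and 30.6% of all tested genes were called, so the calls of the 4 loci came with those of many other genes. Over the 3 ages together, 0.0286% of genes passed limma's F test and 1 of the 4 loci did, Glyma.16G017400 (limma adjusted p = 0.0244). The other 3 had a limma adjusted p of 0.0523 each.

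The spread at 24h was shared by the copies. In this group replicate 1 was the highest, replicate 3 the middle and replicate 2 the lowest library at all 4 loci. Replicate 1 was also the highest 24h library for 46.2% of all tested genes. The highest 24h library was 7.48 times the lowest at Glyma.16G017400, 6.38 times at Glyma.07G048500, 12.3 times at Glyma.19G260900 and 27.9 times at Glyma.03G261800. As a percentage of the log2 distance from the 12h mean to the 48h mean, 24h replicate 1 stood at 72.6% to 84.0% over the 4 loci. On the same scale 24h replicate 3 stood at 34.2% to 50.9%, and 24h replicate 2 at 11.2% to 25.7%. In the other groups the copies shared the highest library in FPKM, replicate 3 at 12h and replicate 1 at 48h, but not the lowest. After median-of-ratios scaling this no longer held at 12h. Replicate 2 was then above replicate 3 at Glyma.16G017400 (5.30 against 4.20 scaled FPKM) and at Glyma.07G048500 (1.56 against 1.54). The share of all tested genes with these highest libraries at 12h and 48h was not counted. Nor was the share with the full order of the 24h libraries.

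As a description over 9 libraries, the Pearson correlation of log2(FPKM + 1) between 2 LHY loci was 0.986 to 0.998 over the 6 pairs of loci. These libraries share their age groups, and after each group's mean was taken away the correlations were 0.937 to 0.989. Among the 31517 other tested genes, the gene most like Glyma.19G260900 was Glyma.03G261800, and the reverse also held. The gene most like Glyma.16G017400 was Glyma.19G260900, with its own homeolog Glyma.07G048500 at rank 4. After the group means were taken away, the closest gene to each locus was its own homeolog, at rank 1 in all 4 cases. Reads that match both copies of a pair can make their values move together, and the part of such reads was not tested.

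The make-up of the LHY signal differed between the ages. The summed level of the 4 loci was 3.23, 4.10 and 5.86 FPKM at 12h, 107, 12.4 and 34.6 FPKM at 24h, and 299.9, 179 and 173 FPKM at 48h. Glyma.16G017400 held 73.9% ± 4.15 of the sum at 12h, then 70.2% ± 5.05 (24h) and 67.2% ± 3.10 (48h; each ± SD over 3 libraries), values that lie within about 1 SD of each other from one group to the next. Glyma.07G048500 held 22.8% ± 2.32 at 12h, then 10.9% ± 1.83 (24h) and 9.88% ± 1.39 (48h; each ± SD over 3 libraries), with no 12h library overlapping the others. Glyma.03G261800 held 0.775% ± 0.671, 10.6% ± 5.38 and 14.9% ± 2.66 (SD, n = 3 each), and Glyma.19G260900 2.47% ± 1.68, 8.25% ± 1.47 and 8.07% ± 1.71. The second pair together thus held 1.25% to 5.57% of the sum in a 12h library and 18.2% to 25.7% in a 48h library.

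**Figure D3:**
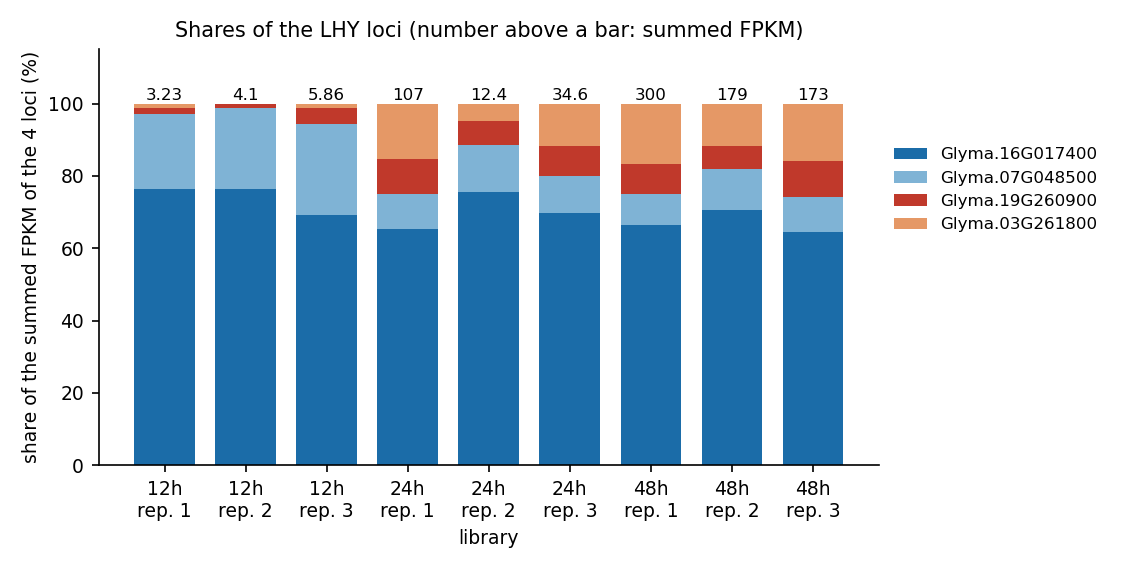
Share of each LHY locus in the summed FPKM of the 4 loci in percent (y axis) in each of the 9 libraries (x axis), with the summed FPKM above each bar. Glyma.16G017400 holds 64.5% to 76.4% in all libraries, and the second pair together holds 5.57% or less at 12h and 11.5% or more in the other groups.

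The order of the copies below Glyma.16G017400 was not the same at all ages. In the 3 libraries at 12h, and in 24h replicate 2, it ran Glyma.07G048500, Glyma.19G260900, Glyma.03G261800. At 48h Glyma.03G261800 was second in 3 of 3 libraries, followed by Glyma.07G048500 and Glyma.19G260900. The levels of these last 2 at 48h were 20.9 ± 4.32 and 17.6 ± 6.66 FPKM (SD, n = 3 each). Within a library they stood at 25.6 against 24.6, 20.3 against 11.3 and 17 against 16.8 FPKM in 48h replicates 1, 2 and 3. The SDs are spreads over libraries that the copies share, and do not measure the difference within a library. At 24h the order of the 3 lower copies differed from library to library. Their levels were 5.13 ± 4.55 FPKM for Glyma.07G048500, 4.69 ± 5.05 FPKM for Glyma.19G260900 and 6.98 ± 8.24 FPKM for Glyma.03G261800 (SD, n = 3 each).

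Ratios between copies of 1 library do not depend on how that library was scaled, apart from a constant of 0.1 FPKM that was added to both sides because of the listed 0. Of Glyma.16G017400 to Glyma.07G048500, the plain ratio was 3.69, 3.39 and 2.73 in the 12h libraries, 6.80, 5.80 and 6.88 at 24h, and 7.80, 6.25 and 6.56 at 48h. Every 12h library lay below every later library, and the 24h and 48h libraries overlapped. With the constant, the log2 ratio was 1.60 ± 0.183 at 12h, then 2.65 ± 0.166 (24h) and 2.77 ± 0.169 (48h; each ± SD over 3 libraries). It differed over the 3 ages by an exact permutation test over all 1680 assignments of the libraries to groups (p = 0.0214; adjusted p = 0.0321 over the 3 ratios tested), in which the smallest possible p is 0.00357.

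In the other pair the listed order of the copies turned round. At 12h both copies were near the floor, so which of them was higher there is uncertain. The level of Glyma.03G261800 was 0.644, 0 and 0.270 times that of Glyma.19G260900 in the 12h libraries, 1.56, 0.690 and 1.45 times at 24h, and 2.05, 1.88 and 1.65 times at 48h. Glyma.19G260900 was the higher copy in 3 of 3 libraries at 12h and in 24h replicate 2, and the lower copy in the other 5 libraries. The log2 ratio of Glyma.19G260900 to Glyma.03G261800, with the constant, was 0.62 ± 0.439 at 12h, then -0.23 ± 0.608 (24h) and -0.88 ± 0.16 (48h; each ± SD over 3 libraries), and differed over the ages (exact permutation p = 0.0393; adjusted p = 0.0393 over the 3 ratios). The 12h values of this pair are all at or under 0.257 FPKM, where the added constant moves the ratio strongly: its change from 12h to 48h was -1.51 with 0.1 FPKM, -2.52 with 0.01 FPKM and -0.96 with 1 FPKM.

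The first pair summed was 33.3, 78.8 and 17 times the second pair summed in the 12h libraries, 3.0, 7.67 and 4.0 times at 24h, and 3.0, 4.51 and 2.89 times at 48h. The log2 ratio of the pair sums with the constant was 4.19 ± 0.538 at 12h, then 2.14 ± 0.651 (24h) and 1.76 ± 0.355 (48h; each ± SD over 3 libraries; exact permutation p = 0.0214, adjusted p = 0.0321 over the 3 ratios). With 1 FPKM added in place of 0.1 the difference was gone (change from 12h to 48h -0.42, exact permutation p = 0.314). The ratios also lean on single libraries. Without 12h replicate 2, without 48h replicate 1 or without 48h replicate 3, none of the 3 passed (exact permutation, adjusted p 0.0536 to 0.0750 over the 3 ratios). The ratio of the second pair also missed the threshold without 12h replicate 3 (exact permutation, adjusted p = 0.0643) and without 48h replicate 2 (exact permutation, adjusted p = 0.0679).

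**Figure D4:**
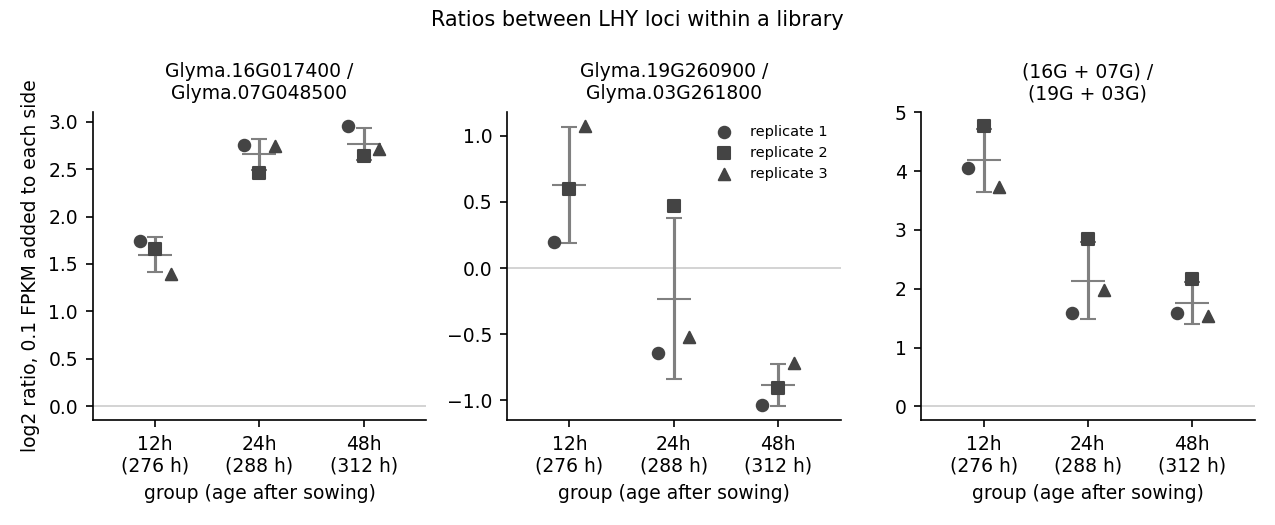
Log2 ratio between LHY copies within a library, with 0.1 FPKM added to each side (y axis), by group and age (x axis); markers are libraries and grey bars the mean ± SD (n = 3). The first ratio stands near 1.60 at 12h and near 2.77 at 48h, and the second passes from above 0 at 12h to below 0 at 48h, with 24h replicate 2 still above 0.

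Of the 7 evening-phased loci published as ELF3, LUX, GIGANTEA and TOC1 genes of soybean, 0 passed in any contrast or over the 3 ages (limma adjusted p 0.365 to 0.994). An unadjusted limma p under 0.05 was reached by 1 of the 7 at 24h against 12h, 0 at 48h against 24h and 3 at 48h against 12h. Over all tested genes the shares in these contrasts were 9.96%, 17.9% and 10.8%. The median log2 fold change from 12h to 48h was -1.04 for the list and 0.341 for all tested genes, with 5 of the 7 below 0. The 12h libraries lay far apart here, as at Glyma.10G221500, published as GIGANTEA, with 19, 1.67 and 31.8 FPKM in 12h replicates 1, 2 and 3. Without 12h replicate 2 the median was -1.23 for the list, with 7 of 7 below 0, and 0.149 for all tested genes. Of the 7, 0 passed in that contrast (limma). At 24h against 12h, leaving out the same library brought Glyma.04G050200, published as ELF3, and Glyma.06G196200, published as TOC1, past the threshold as lower at 24h (limma adjusted p 0.0288 and 0.0325), where 12.1% of all tested genes were called. In 24h replicate 2, the 24h library lowest in LHY, 6 of the 7 were higher than in the other 24h libraries, as were 34.9% of all tested genes. Glyma.11G136600, published as LUX, the DNA-binding member of the evening complex, was at 2.45, 8.04 and 1.98 FPKM in 24h replicates 1, 2 and 3, and Glyma.10G221500 at 11, 23.8 and 4.23 FPKM. The exception was Glyma.04G166300, published as TOC1, at 5.60, 5.18 and 2.11 FPKM.

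Of 6 further loci around LHY in the photoperiod pathway, 5 were below the filter. The loci published as E1La and E1Lb, relatives of the flowering repressor E1, were listed at 0 in all libraries. E1 itself (Glyma.06G207800) and the florigen loci published as FT2a and FT5a stayed at or below 0.120 FPKM. The sixth, Glyma.12G073900, published as PRR3B, a pseudo-response regulator known to repress LHY in soybean, was at 13.9, 1.76 and 24.7 FPKM at 12h, 3.51, 2.13 and 1.97 FPKM at 24h, and 8.42, 11.3 and 3.52 FPKM at 48h. In FPKM, 12h replicate 2 lay below every 24h and 48h library while the other 12h libraries lay above them all. After median-of-ratios scaling, 12h replicate 2 stood at 2.99 scaled FPKM, above 24h replicates 2 (2.02) and 3 (2.51). No contrast passed. The log2 fold change was -1.55 ± 0.683 for 24h against 12h (SE, limma adjusted p = 0.499) and -0.34 for 48h against 12h (limma adjusted p = 0.803).

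The 4 LHY profiles, each standardized and averaged, were set against 17216 other tested genes whose mean over the libraries reached 5 FPKM. The highest Pearson correlations over the 9 libraries were 0.992 for Glyma.11G158200 and 0.992 for Glyma.15G229400, and 54 of these genes exceeded 0.9. Glyma.11G158200 was at 0.0425, 0 and 0.660 FPKM at 12h, 17.5, 0.382 and 2.40 FPKM at 24h, and 53.6, 28.5 and 31.1 FPKM at 48h. Glyma.15G229400 was at 0.395, 0.319 and 0.302 FPKM at 12h, 9.91, 0.672 and 4.44 FPKM at 24h, and 25.2, 14.3 and 21.9 FPKM at 48h. Both have the order of the 24h libraries seen at the LHY loci, which their choice by correlation over the same libraries largely fixes.

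The most opposite profiles were those of Glyma.02G064300 (r = -0.979) and Glyma.02G064400 (r = -0.961), and 11 genes were below -0.9. Glyma.02G064300 was at 73.6, 72.4 and 47.7 FPKM at 12h, 4.57, 52.0 and 13.3 FPKM at 24h, and 3.90, 4.43 and 5.26 FPKM at 48h. Glyma.02G064400 was at 69.4, 65.5 and 35.4 FPKM at 12h, 2.04, 37.6 and 5.64 FPKM at 24h, and 2.22, 2.5 and 2.15 FPKM at 48h. In 24h replicate 2 both stood at or near their 12h levels, and in 24h replicate 1 near their 48h levels, an order that the choice by correlation again largely fixes. The files pair none of these 4 IDs with a name.

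**Figure D5:**
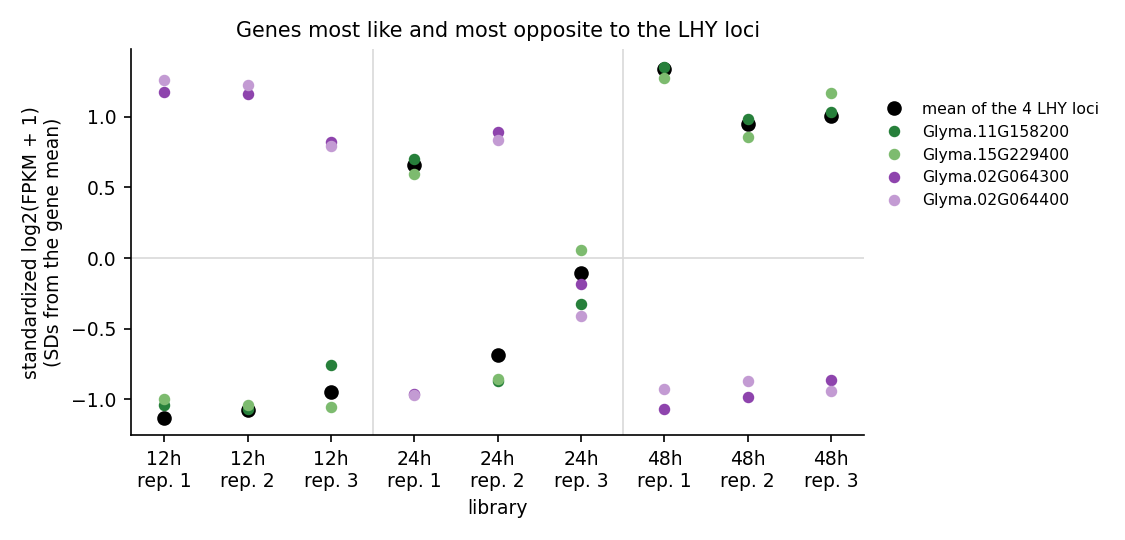
Standardized log2(FPKM + 1), in SDs from a gene's mean over the 9 libraries (y axis), for the mean of the 4 LHY loci and for the genes with the most similar and the most opposite profiles, by library (x axis). The opposite genes (r = -0.979 and -0.961) run against the LHY loci, as the rule that chose them by correlation over these libraries sets.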

How the data were processed

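Root hair mRNA was sequenced from TruSeq libraries, per the labels' protocols. Per the submitters' processing notes, TopHat2 2.1.0 and Cufflinks 2.2.1 were used. Build, annotation and filters are not stated in the sources at hand. The deposited values are FPKM made by the authors, used without conversion. Its file name speaks of tissue culture, but the labels say root hair cells and were followed. Whole reads could not be recovered: among genes under 0.2 FPKM in both libraries of a pair, 1.44% to 5.74% shared the most common ratio within 1%, over 36 pairs. Depth is therefore unknown, and no counting interval is given.

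A gene was tested if 3 or more libraries reached 1 FPKM, with limma 3.58.1 (R 4.3.3) on log2(FPKM + 1), with an intensity trend, a term per group, all 9 libraries in 1 fit and a prior of 5.893 degrees of freedom. Adjustment was by Benjamini-Hochberg and calls were made at 0.05. The code was tested on simulated data with a smaller spread than these libraries, which does not show how well it finds changes here. Log2 ratios between loci were tested by exact permutation over the 3 groups (Python 3.11.15). Loci were matched to columns and groups through the sample titles.

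Named genes were the 4 loci, 7 evening-phased and 6 photoperiod loci by published ID, the 2 genes of highest and the 2 of lowest correlation, 4 leghemoglobin loci and, for scaling only, 7 reference genes. The loci, lists and settings were chosen with earlier results of these data known. The published names were not checked against an annotation. Other settings were pseudocounts, filters, 3 scalings, robust moderation, a replicate block, array weights, fits of the 6 libraries of a contrast, and leaving out libraries in turn. No sequences are shown.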

Additional observations from a re-analysis of the deposited data

How the results depend on the processing

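All settings were planned except the plain folds without each library, which were added after seeing the data. The sign of the 12 log2 fold changes (4 loci, 3 contrasts) was kept in each of the 20 other settings, and depth, which is unknown, was not tested. With groups that did not overlap in FPKM, only the scalings could have changed a sign. The number of LHY loci called, with 4 from 12h to 48h in all libraries, was 0 with no filter and after median-of-ratios scaling and 1 after reference gene scaling and after quantile normalization, with 0 to 4 when 1 library was left out. From 24h to 48h it was 0 in all libraries, 4 with array weights (9648 of 31518 genes called), 4 with only the 6 libraries compared (5412 genes), and 0 to 4 without 1 library (4 without 12h replicate 2, with 3730 genes). From 12h to 24h it was 0, and 0 to 1 without 1 library. Over the 3 ages it was 1 in all libraries, 4 with a pseudocount of 0.1 or 0.25, with robust moderation, with array weights and with the replicate block, 0 with no filter and after each of the 3 scalings, and 0 to 4 without 1 library. The cause was not tested.

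The change of the log2 ratios from 12h to 48h was 1.07 to 1.24 for the first pair, -1.72 to -1.28 for the second and -2.66 to -2.13 for the pair sums when 1 library was left out. With the replicate block, in which labels were permuted within a replicate number, the changes stayed at 1.17, -1.51 and -2.43 with an exact permutation adjusted p of 0.0556 each. The pair sums with 1 FPKM added gave -0.42 (exact permutation p = 0.314). Same-numbered libraries of different groups mostly did not deviate together (r over 0.1 in 1 of 9 pairs, against 7 of 18 pairs with unlike numbers). The highest r, 0.351, was that of a same-numbered pair, 12h replicate 1 with 24h replicate 1. Over the same-numbered pairs r ran from -0.0778 to 0.351, and over the others from -0.457 to 0.229. The replicate block raised the whole-table count of called genes in each comparison. With 3 libraries per group, these values do not settle whether the numbers pair the libraries. The 12 shares moved by less than 1 SD in every setting. Leaving out 1 of 3 libraries cannot move a mean by 1 SD, whatever the data. Only the share of the group's summed FPKM could have done so.

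Whole-table counts of called genes were 12, 0, 37 and 9 for 24h against 12h, 48h against 24h, 48h against 12h and the 3 ages. Over all other settings they ran from 2 to 3803, 0 to 9648, 1 to 117 and 2 to 6727; 3803 is without 12h replicate 2, and 9648, 117 and 6727 are with array weights. The replicate block gave 21, 4, 102 and 81.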
